A study of Homo sapiens with 6 samples.

Results

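The 10 genes described here encode the EGFR family of receptors and their ligands: the receptors EGFR, ERBB2 and ERBB3, the EGF-like ligands AREG, EREG, HBEGF, TGFA, EPGN and BTC, and the feedback inhibitor ERRFI1. They were taken by name from the 23024 genes of the deposited expression table, which listed all 10. Of these, 9 averaged at least 1 FPKM (fragments per kilobase of gene, scaled to the size of the library) over the 6 libraries and were tested among 11152 such genes. BTC lay below that level and is described without a call.

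EGFR family receptors are tyrosine kinases of the cell surface that signal as pairs. The EGF-like ligands are made as membrane-anchored precursors and are released by metalloproteases of the ADAM family. AREG, EREG, HBEGF, TGFA, EPGN and BTC bind EGFR, whereas ERBB2 has no known ligand of its own and ERBB3, whose kinase is weak, binds neuregulins. ERRFI1, also called MIG6, binds the kinase domain of EGFR and blocks it. In bladder carcinoma, EGFR is best known in tumours of basal type and ERBB2 and ERBB3 in tumours of luminal type.

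RNA was sequenced from the established human bladder carcinoma line 5637. The 3 libraries named sh-RAD51C carry the genotype label RAD51C knockdown, by a short hairpin RNA, and the 3 named NC carry the genotype label WT; both came from transfected cells. The meaning of NC, the hairpin sequence and what the numbers 1 to 3 mark are not given in the labels. Separate cultures are therefore not assured, and a p-value here reflects only how far these libraries scatter, possibly for technical reasons. Library totals inferred from the FPKM values were 37104318 to 38079825 reads in sh-RAD51C and 36068282 to 37560184 reads in NC.

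RAD51C, the target of the hairpin and a factor of homologous recombination, held 3.51, 3.09 and 2.95 FPKM in sh-RAD51C 1, 2 and 3, against 14.7, 13.2 and 13.6 FPKM in NC 1, 2 and 3. The groups stood far apart (log2 fold change -1.83, SE 0.064; limma adjusted p = 7.16e-09). All 12 urothelial and epithelial markers examined, KRT5, KRT7 and EPCAM among them, averaged at least 1 FPKM. Their summed level was 3034 to 3118 FPKM in sh-RAD51C and 3490 to 3599 FPKM in NC, with 6 markers higher and 6 lower. Called higher were EPCAM, KRT7, KRT8, KRT18, GATA3 and LAMB3. Called lower were CDH1, KRT5, KRT17, KRT19, TP63 and ITGA6. KRT5, a basal keratin named after its values were seen, averaged 301 ± 3.04 FPKM in sh-RAD51C and 686 ± 6.81 FPKM in NC (SD, n = 3 each). KRT7, likewise named after its values were seen, went the other way, at 685 ± 13.8 FPKM in sh-RAD51C and 407 ± 19.9 FPKM in NC. All 10 endothelial markers, 7 of the 10 fibroblast markers listed and 5 of the 7 blood cell markers listed stayed under 0.5 FPKM in every library. The 10 listed fibroblast markers summed to 56.3 to 57.9 FPKM in sh-RAD51C and 70.5 to 70.9 FPKM in NC, and COL1A2, DCN and POSTN were at or near 0. Nearly all of that sum came from FBLN1, COL1A1 and THY1. FBLN1 held 43.4 to 45.8 FPKM in sh-RAD51C and 55.7 to 56.3 FPKM in NC and was called lower, as was COL1A1, at 6.405 to 7.162 FPKM in sh-RAD51C and 9.50 to 10.3 FPKM in NC. THY1 was called higher, at 5.47 to 5.57 FPKM in sh-RAD51C and 4.41 to 4.85 FPKM in NC. The 7 listed blood cell markers summed to 2.40 to 3.72 FPKM in sh-RAD51C and 3.08 to 3.56 FPKM in NC, and the endothelial markers to at most 0.552 FPKM in any library. The part of these marker shifts in the results on the EGFR family was not tested.

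Most of the ligand genes were higher in sh-RAD51C, and the receptor genes ERBB2 and ERBB3 were lower. AREG, EREG, HBEGF and TGFA were called higher, together with EGFR by a smaller margin. EPGN and ERRFI1 were not called. A call is an adjusted p under 0.05 in limma on log2(FPKM + 1) values, with Benjamini-Hochberg adjustment over all 11152 genes. Thus 5 of the 9 tested genes were higher and 2 lower, while over all tested genes 49.4% were called, 23.2% higher and 26.2% lower. The groups did not overlap in 7 of the 9 tested genes, 5 higher and 2 lower. Over all tested genes that share was 58.4%, with 27.6% higher and 30.8% lower, so a call or a separation by itself sets these genes little apart. Their median log2 fold change was 0.18, and that of all tested genes was -0.01. In bulk RNA, fewer cells that express a gene and less of its RNA per cell cannot be told apart.

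**Figure D1:**
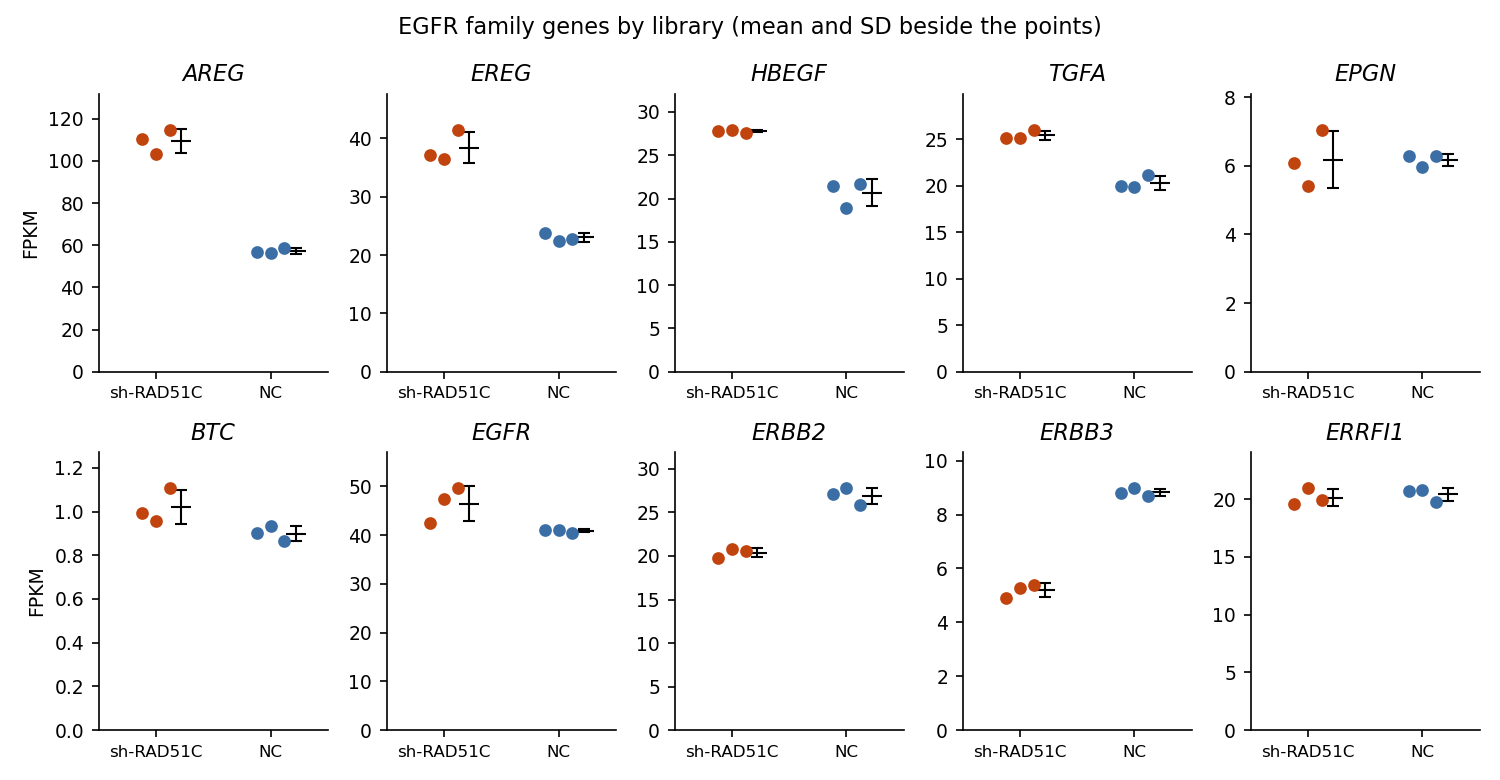
FPKM of each gene (vertical axes, from 0) in the 3 sh-RAD51C libraries (left, orange) and the 3 NC libraries (right, blue), with the mean and SD beside the points. AREG, EREG, HBEGF and TGFA, and by smaller margins EGFR and BTC, are higher in every sh-RAD51C library. ERBB2 and ERBB3 are lower in every one, and the groups of EPGN and ERRFI1 overlap.

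**Figure D2:**
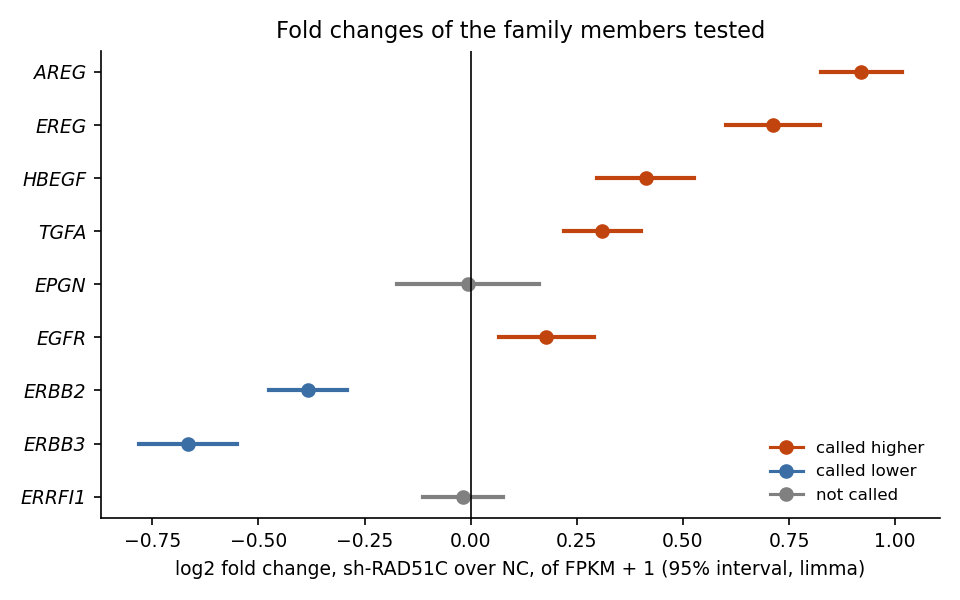
Log2 fold change of FPKM + 1 (horizontal axis, sh-RAD51C over NC) for the 9 genes tested, with 95% intervals from limma. The values run from 0.92 for AREG to -0.67 for ERBB3, and the intervals of EPGN and ERRFI1 include 0.

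AREG encodes amphiregulin, an EGFR ligand common in epithelia, and was the most abundant of the 10 genes in both groups (ENSG00000109321.10; GRCh38 chromosome 4, 74445134 to 74455009, plus strand). It held 110.4, 103.1 and 114.7 FPKM in sh-RAD51C 1, 2 and 3, against 56.6, 56.4 and 58.9 FPKM in NC 1, 2 and 3. Every sh-RAD51C library lay above 100 FPKM and every NC library below 60 FPKM. The means were 109 ± 5.89 FPKM in sh-RAD51C and 57.3 ± 1.39 FPKM in NC (SD, n = 3 each), a ratio of 1.91. The log2 fold change was 0.92 (SE 0.043, limma adjusted p = 4.25e-08). On that log2(FPKM + 1) scale 79 genes, AREG included, were called with a rise at least as large, 0.708% of those tested. The scale understates the change of low genes, so some larger ratios of means, such as 2.04 for DDAH1, were not counted.

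EREG encodes epiregulin, which binds EGFR and also ERBB4, and its gene lies next to AREG on the same strand (ENSG00000124882.3; chromosome 4, 74365143 to 74388751). Its level was 37.2, 36.5 and 41.5 FPKM in sh-RAD51C 1, 2 and 3, against 23.8, 22.4 and 22.8 FPKM in NC 1, 2 and 3. The groups did not overlap, and sh-RAD51C 3 was the highest of the 6. The ratio of means was 1.67 (log2 fold change 0.71, SE 0.05; limma adjusted p = 8.9e-07). AREG exceeded EREG 2.77- to 2.97-fold within the sh-RAD51C libraries and 2.38- to 2.58-fold within the NC libraries.

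EPGN encodes epigen, a low-affinity EGFR ligand, and is the next gene upstream in this cluster (ENSG00000182585.9; chromosome 4, 74308473 to 74315307, plus strand). It held 6.07, 5.41 and 7.05 FPKM in sh-RAD51C 1, 2 and 3, against 6.27, 5.97 and 6.28 FPKM in NC 1, 2 and 3. The sh-RAD51C libraries surrounded the NC libraries. The log2 fold change was -0.0056 (95% interval -0.17 to 0.16; limma adjusted p = 0.96), an interval that does not reach the 0.71 of EREG.

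The 250 bases before the RefSeq start of AREG, EREG and EPGN are shown because these neighbours stood at log2 fold changes of 0.92, 0.71 and -0.0056. The windows are chr4:74444886-74445135, chr4:74364895-74365144 and chr4:74308220-74308469 on the plus strand (RefSeq, GRCh38.p14), 5′ to 3′. Capitals mark matches, on either strand, to the cyclic AMP response element TGACGTCA, the AP-1 site TGANTCA, the TEAD core GGAATG, the SP and KLF site GGGCGG, and the TATA box TATAAA.
AREG: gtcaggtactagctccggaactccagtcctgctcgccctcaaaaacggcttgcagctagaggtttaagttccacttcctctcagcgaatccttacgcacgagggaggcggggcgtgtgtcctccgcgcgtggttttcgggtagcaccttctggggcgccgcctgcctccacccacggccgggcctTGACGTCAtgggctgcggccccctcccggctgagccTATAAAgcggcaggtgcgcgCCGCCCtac
EREG: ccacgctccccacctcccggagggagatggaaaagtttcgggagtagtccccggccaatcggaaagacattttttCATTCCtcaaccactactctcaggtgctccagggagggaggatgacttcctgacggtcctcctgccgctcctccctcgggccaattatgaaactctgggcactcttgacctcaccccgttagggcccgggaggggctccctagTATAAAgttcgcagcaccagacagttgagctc
EPGN: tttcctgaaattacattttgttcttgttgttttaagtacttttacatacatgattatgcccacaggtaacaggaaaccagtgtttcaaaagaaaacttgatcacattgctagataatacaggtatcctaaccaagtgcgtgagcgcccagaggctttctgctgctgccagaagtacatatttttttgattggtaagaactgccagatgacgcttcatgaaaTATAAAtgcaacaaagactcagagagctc

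All 3 windows held TATAAA close to the start, its first base 29 bases upstream in AREG, 32 in EREG and 29 in EPGN. That motif was present in 10.7% of 35116 RefSeq windows of the same length. AREG alone of the 3 held the cyclic AMP response element, 65 bases upstream (1.6% of all windows), and a reverse match to GGGCGG, 9 bases upstream (42.6% of all windows). EREG held a reverse match to GGAATG, 175 bases upstream (11.9% of all windows). None of the 3 held TGANTCA, which 6.6% of all windows did. The marked letters do not overlap between motifs, and a match describes the sequence and not its use. RefSeq windows were found for 9 of the 10 genes, all but ERBB3.

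HBEGF encodes heparin-binding EGF-like growth factor, a ligand of EGFR and ERBB4 (ENSG00000113070.7; chromosome 5, 140332843 to 140346631, minus strand). It held 27.8, 27.9 and 27.6 FPKM in sh-RAD51C 1, 2 and 3, against 21.5, 18.9 and 21.7 FPKM in NC 1, 2 and 3. The sh-RAD51C libraries were nearly equal, and NC 2 was the lowest library. The means were 27.8 ± 0.158 FPKM in sh-RAD51C and 20.7 ± 1.58 FPKM in NC (SD, n = 3 each), a ratio of 1.34 (log2 fold change 0.41, SE 0.052; limma adjusted p = 6.43e-05). On the log2(FPKM + 1) scale, a rise at least as large was called in 605 genes, HBEGF included, or 5.43% of those tested.

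TGFA encodes transforming growth factor alpha, an EGFR ligand (ENSG00000163235.15; chromosome 2, 70447280 to 70554193, minus strand). Its level was 25.16, 25.11 and 26.02 FPKM in sh-RAD51C 1, 2 and 3, against 19.95, 19.82 and 21.2 FPKM in NC 1, 2 and 3. The groups did not overlap, at a ratio of means of 1.25. The log2 fold change was 0.31 (SE 0.041; limma adjusted p = 9.85e-05).

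BTC encodes betacellulin, a ligand of EGFR and ERBB4, and was the scarcest of the 10 genes (ENSG00000174808.11; chromosome 4, 74744759 to 74794686, minus strand). It held 0.994, 0.957 and 1.11 FPKM in sh-RAD51C 1, 2 and 3 (162, 152 and 180 inferred reads), against 0.900, 0.933 and 0.864 FPKM in NC 1, 2 and 3 (139, 150 and 139 inferred reads). The groups came close but did not overlap. The ratio of means was 1.13 (exact permutation test, two-sided, p = 0.1, which is the lowest value possible with 3 libraries a side). Without the filter on low values its log2 fold change was 0.09 (95% interval -0.04 to 0.21; limma adjusted p = 0.305).

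EGFR itself was the most abundant receptor gene (ENSG00000146648.17; chromosome 7, 55019021 to 55211628, plus strand). It held 42.5, 47.3 and 49.6 FPKM in sh-RAD51C 1, 2 and 3, against 41.1, 41.0 and 40.5 FPKM in NC 1, 2 and 3. The NC libraries were nearly equal, the sh-RAD51C libraries spread more widely, and sh-RAD51C 1 lay just above NC. The means were 46.5 ± 3.65 FPKM in sh-RAD51C and 40.9 ± 0.3 FPKM in NC (SD, n = 3 each), a ratio of 1.14 (log2 fold change 0.18, SE 0.051; limma adjusted p = 0.0136). That call was lost without sh-RAD51C 3 (0.13, limma adjusted p = 0.054), without the filter on low values (limma adjusted p = 0.0735) and after quantile normalization (limma adjusted p = 0.0527), in a range over 18 alternatives from 0.00052, without sh-RAD51C 1, to 0.0735. The antisense gene EGFR-AS1, named after its values were seen, which shares 1.5% of the EGFR exon bases, stayed at or below 0.131 FPKM in every library.

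ERBB2, which encodes the preferred partner of the other receptors, was lower (ENSG00000141736.13; chromosome 17, 39687914 to 39730426, plus strand). It held 19.8, 20.8 and 20.5 FPKM in sh-RAD51C 1, 2 and 3, against 27.1, 27.8 and 25.9 FPKM in NC 1, 2 and 3. All sh-RAD51C libraries lay below all NC libraries. The level in sh-RAD51C was 75.8% of that in NC (log2 fold change -0.38, SE 0.041; limma adjusted p = 2.19e-05). MIEN1 and PGAP3, whose exons overlap 7.4% of the ERBB2 exon bases, were named after their values were seen. MIEN1 averaged 21.4 ± 1.51 FPKM in sh-RAD51C and 26.2 ± 0.634 FPKM in NC, and PGAP3 4.58 ± 0.549 FPKM in sh-RAD51C and 6.55 ± 0.578 FPKM in NC (SD, n = 3 each). Both were called lower (limma adjusted p = 0.000811 and 0.000856), and because strand use in counting is not given, the share of overlapping reads was not tested.

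ERBB3, the neuregulin receptor that relies on its partners for kinase activity, fell the most of the 10 genes (ENSG00000065361.15; chromosome 12, 56076799 to 56103505, plus strand). It held 4.91, 5.28 and 5.40 FPKM in sh-RAD51C 1, 2 and 3, against 8.81, 8.97 and 8.70 FPKM in NC 1, 2 and 3. The groups were well separated, the sh-RAD51C mean being 58.9% of the NC mean. The log2 fold change was -0.67 (SE 0.052, limma adjusted p = 1.96e-06). On that log2(FPKM + 1) scale 284 genes, ERBB3 included, or 2.55% of those tested, were called with a fall at least as large. Low genes with a larger fall by ratio of means can lie outside that count.

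ERRFI1, the intracellular inhibitor of EGFR, held nearly the same level in both groups (ENSG00000116285.12; chromosome 1, 8004404 to 8026308, minus strand). Its level was 19.6, 20.9 and 19.9 FPKM in sh-RAD51C 1, 2 and 3, against 20.7, 20.8 and 19.8 FPKM in NC 1, 2 and 3. The groups overlapped. The log2 fold change was -0.02 (95% interval -0.11 to 0.07; limma adjusted p = 0.746).

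Set beside each other as levels in FPKM, which are per kilobase of the gene models used by the authors, the genes stood in a different order in the groups. In sh-RAD51C the order was AREG, EGFR, EREG, HBEGF, TGFA, ERBB2, ERRFI1, EPGN, ERBB3 and BTC, and only ERBB2 and ERRFI1 overlapped among neighbours in that order. In NC it was AREG, EGFR, ERBB2, EREG, HBEGF, ERRFI1, TGFA, ERBB3, EPGN and BTC, where HBEGF, ERRFI1 and TGFA overlapped. ERBB2 thus stood above all ligand genes but AREG in NC, and below AREG, EREG, HBEGF and TGFA in sh-RAD51C. Among all 23024 genes listed, AREG ranked 508 by mean FPKM in sh-RAD51C and 1001 in NC, and ERBB3 ranked 7209 in sh-RAD51C and 5529 in NC. The lengths inferred from the FPKM values differed from those of GENCODE release 29 (for EPGN 3566 against 1814 exon bases), so levels compared between genes depend on the gene model.

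The 6 ligand genes summed to 199 to 218 FPKM in the sh-RAD51C libraries and 124 to 132 FPKM in the NC libraries, a ratio of means of 1.62. AREG made up 52.5% ± 0.691 of that sum in sh-RAD51C and 44.6% ± 0.716 in NC (SD, n = 3 each). The share of EREG was 18.4% in sh-RAD51C and 17.9% in NC, while HBEGF held 13.4% in sh-RAD51C and 16.1% in NC, and TGFA 12.2% in sh-RAD51C and 15.8% in NC. The 3 receptor genes summed to 67.2 to 75.6 FPKM in sh-RAD51C and 75.1 to 77.8 FPKM in NC, which overlap. Within that sum EGFR held 64.4% ± 1.23 in sh-RAD51C and 53.4% ± 0.611 in NC, and ERBB3 7.21% ± 0.0851 in sh-RAD51C and 11.5% ± 0.0716 in NC. The ratio of EGFR to ERBB3 was 8.65 to 9.19 in sh-RAD51C and 4.57 to 4.66 in NC. These sums and shares are descriptions of RNA and carry no test.

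**Figure D3:**
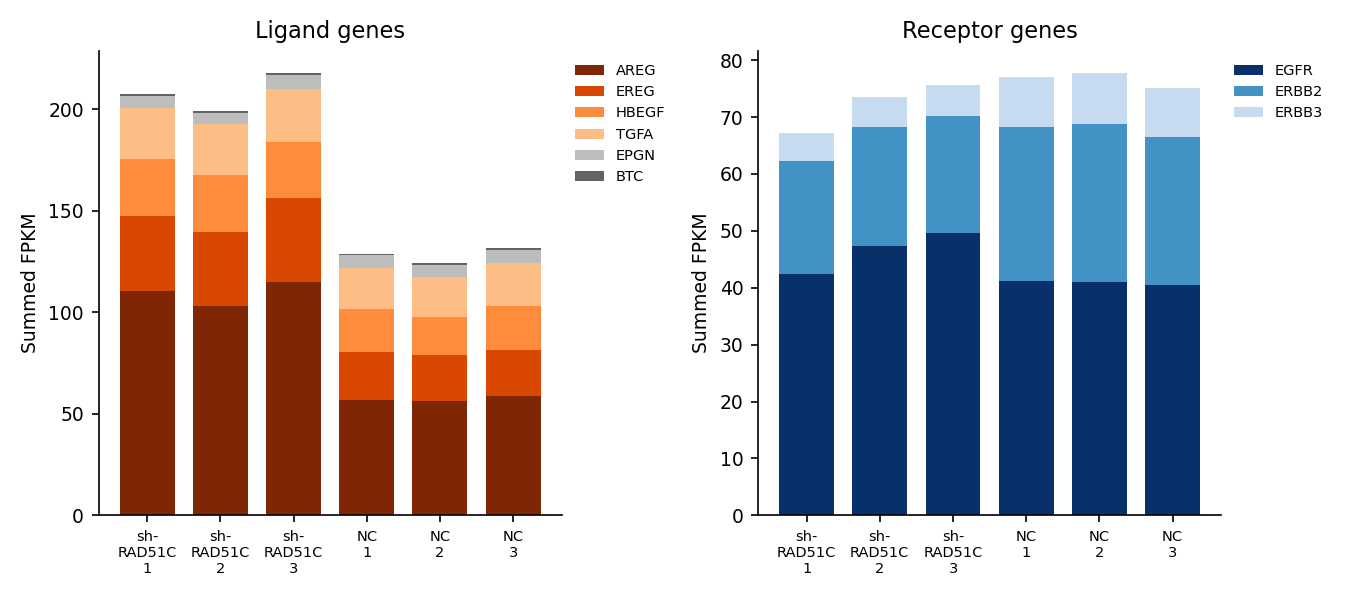
Summed FPKM (vertical axes, from 0) of the 6 ligand genes and of the 3 receptor genes in each library, sh-RAD51C 1 to 3 at the left and NC 1 to 3 at the right, stacked by gene. The ligand sums are 199 to 218 FPKM in sh-RAD51C and 124 to 132 FPKM in NC, and the receptor sums overlap while the share of EGFR is larger in sh-RAD51C.

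EPGN, EREG, AREG and BTC lie in a single cluster on chromosome 4, close to chemokine genes. Within 500 kb of the cluster, the annotation holds 6 other genes that were tested, of which 3 were higher and 2 lower. Over all tested genes 49.4% were called, 23.2% higher and 26.2% lower, so calls in both directions are common. CXCL6, a chemokine for neutrophils whose start lies at -608.6 kb from that of AREG, averaged 17.2 ± 1.21 FPKM in sh-RAD51C and 8.67 ± 0.902 FPKM in NC (SD, n = 3 each; log2 fold change 0.92, limma adjusted p = 1.87e-06). The neutrophil chemokine genes CXCL1 and CXCL2 were also higher, by 0.33 and 0.32 on the log2 scale, whereas CXCL5 and CXCL3 fell by 0.28 and 0.55 (largest limma adjusted p = 0.00301). LINC02562, a noncoding gene on the BTC side, was not called (0.16; limma adjusted p = 0.133), though it was without NC 2 (limma adjusted p = 0.0345; 0.0277 to 0.42 over 17 alternatives). How reads were divided among these chemokine genes, which are similar in sequence, is uncertain. By position, the lower CXCL5 and CXCL3 lie between the higher CXCL1 and CXCL2, and EPGN was flat beside EREG. A change of the region as a whole was not tested.

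**Figure D4:**
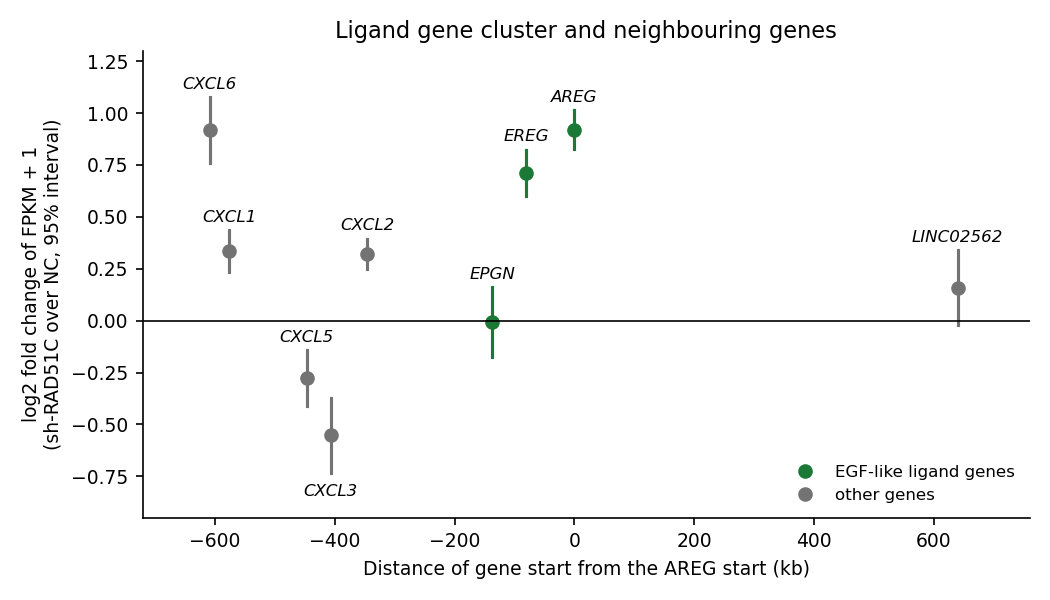
Log2 fold change of FPKM + 1 (vertical axis, sh-RAD51C over NC, 95% intervals from limma) of the tested genes around the ligand cluster, by distance of the gene start from that of AREG in kb (horizontal axis). EREG and AREG are at 0.71 and 0.92, EPGN near 0, and the chemokine genes at the left lie on both sides of 0.

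Likeness to single members was measured as the root mean square difference over the 6 libraries between log2(FPKM + 1) profiles centred on their NC means, with the members themselves left out. Nearest to AREG came DDAH1 (0.048), PRAG1 (0.059) and AADAC (0.06), where the median over genes was 0.66. DDAH1 averaged 10.8 ± 0.504 FPKM in sh-RAD51C and 5.3 ± 0.0817 FPKM in NC (SD, n = 3 each). Nearest to EGFR came TMEM181 (0.014), TBC1D4 (0.018) and RAB5IF (0.019), where the median was 0.18. These 3 had, as EGFR did, a lower value in sh-RAD51C 1 than in sh-RAD51C 2 and 3. They were chosen by likeness over these same libraries, so that shared pattern is no separate result. TMEM181 held 9.81, 11.1 and 11.5 FPKM in sh-RAD51C 1, 2 and 3, against 9.64, 9.56 and 9.40 FPKM in NC 1, 2 and 3. Its call (limma adjusted p = 0.037) was lost in 8 of 18 alternatives, up to 0.135 without sh-RAD51C 3.

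Of the remaining receptor and ligands of the family, only NRG1 averaged at least 1 FPKM. NRG1 encodes neuregulin 1, a ligand of ERBB3 and ERBB4, and held 3.01, 3.08 and 3.22 FPKM in sh-RAD51C 1, 2 and 3, against 1.39, 1.54 and 1.85 FPKM in NC 1, 2 and 3. It was higher in every sh-RAD51C library, 1.95-fold by means (log2 fold change 0.66, SE 0.075; limma adjusted p = 3.05e-05). The receptor gene ERBB4 and the ligand genes EGF, NRG2 and NRG4 stayed under 0.5 FPKM in every library, and NRG3 was not listed. These complete the list and were named after their values were seen. NRG4, which was not tested, was lower, at 0.189 to 0.241 FPKM in sh-RAD51C and 0.253 to 0.364 FPKM in NC. Its inferred reads were 170 to 222 in sh-RAD51C and 230 to 331 in NC. Groups without overlap, as here, were found in 58.4% of all tested genes.

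Of 12 tested genes of ligand shedding and trafficking, 3 were higher, 7 lower and 2 not called. The median log2 fold change was -0.17, against -0.01 for all tested genes. The called share was 83.3%, against 49.4% of all tested genes, where 23.2% were higher and 26.2% lower. Summed over the list, levels overlapped, at 256.2 to 263.0 FPKM in sh-RAD51C and 255.6 to 264.0 FPKM in NC. The list mixes proteases with the inhibitor TIMP3, so its counts give no direction of ligand release. ADAM9, a metalloprotease, averaged 38.4 ± 1.32 FPKM in sh-RAD51C and 27.4 ± 0.497 FPKM in NC, and TIMP3, an inhibitor of ADAM17, averaged 56.5 ± 0.862 FPKM in sh-RAD51C and 41.6 ± 2.39 FPKM in NC (SD, n = 3 each). FRMD8, which stabilises the iRhom and ADAM17 complex at the cell surface, averaged 13.8 ± 0.683 FPKM in sh-RAD51C and 18.3 ± 0.46 FPKM in NC. The tetraspanin CD9 fell by 0.41 on the log2 scale. No limma adjusted p among these 4 exceeded 5.05e-05. ADAM17, the main protease that releases AREG, EREG, HBEGF and TGFA, was named after its values were seen: it averaged 11.1 ± 0.389 FPKM in sh-RAD51C and 14 ± 0.493 FPKM in NC (limma adjusted p = 0.000254).

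Adaptors and kinases downstream of the receptors had 4 higher, 9 lower and 14 not called of 27 tested (median -0.05), a called share of 48.1% that is close to the 49.4% of all genes. STAT3, a transcription factor activated by receptor kinases, averaged 41.8 ± 2.37 FPKM in sh-RAD51C and 56.3 ± 0.505 FPKM in NC (SD, n = 3 each). The adaptor genes NCK1 and SHC1 had log2 fold changes of -0.45 and -0.31, and MAP2K1, the kinase MEK1, rose by 0.2. No limma adjusted p among STAT3, NCK1, SHC1 and MAP2K1 exceeded 0.00153. The count called higher was 2 when NC 1, NC 2 or NC 3 was left out.

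Negative regulators and genes of receptor turnover had 7 higher, 4 lower and 11 not called of 22 tested (median -0.02), a called share of 50%. SH3KBP1, an adaptor that links CBL ubiquitin ligases to endocytosis, averaged 16 ± 0.36 FPKM in sh-RAD51C and 8.67 ± 0.832 FPKM in NC, and CBLC, an epithelial CBL ligase, averaged 16.2 ± 0.974 FPKM in sh-RAD51C and 26.8 ± 1.6 FPKM in NC (SD, n = 3 each). The receptor phosphatase PTPRK and UBASH3B, which binds CBL and dephosphorylates receptors, rose by 0.55 and 0.4 on the log2 scale. Among SH3KBP1, CBLC, PTPRK and UBASH3B no limma adjusted p exceeded 0.000206. The count called lower was 2 without sh-RAD51C 1, without sh-RAD51C 2 or without NC 1, and 1 without NC 2. These lists were read from the same comparison over all genes, and no test was made of a list as a whole.

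**Figure D5:**
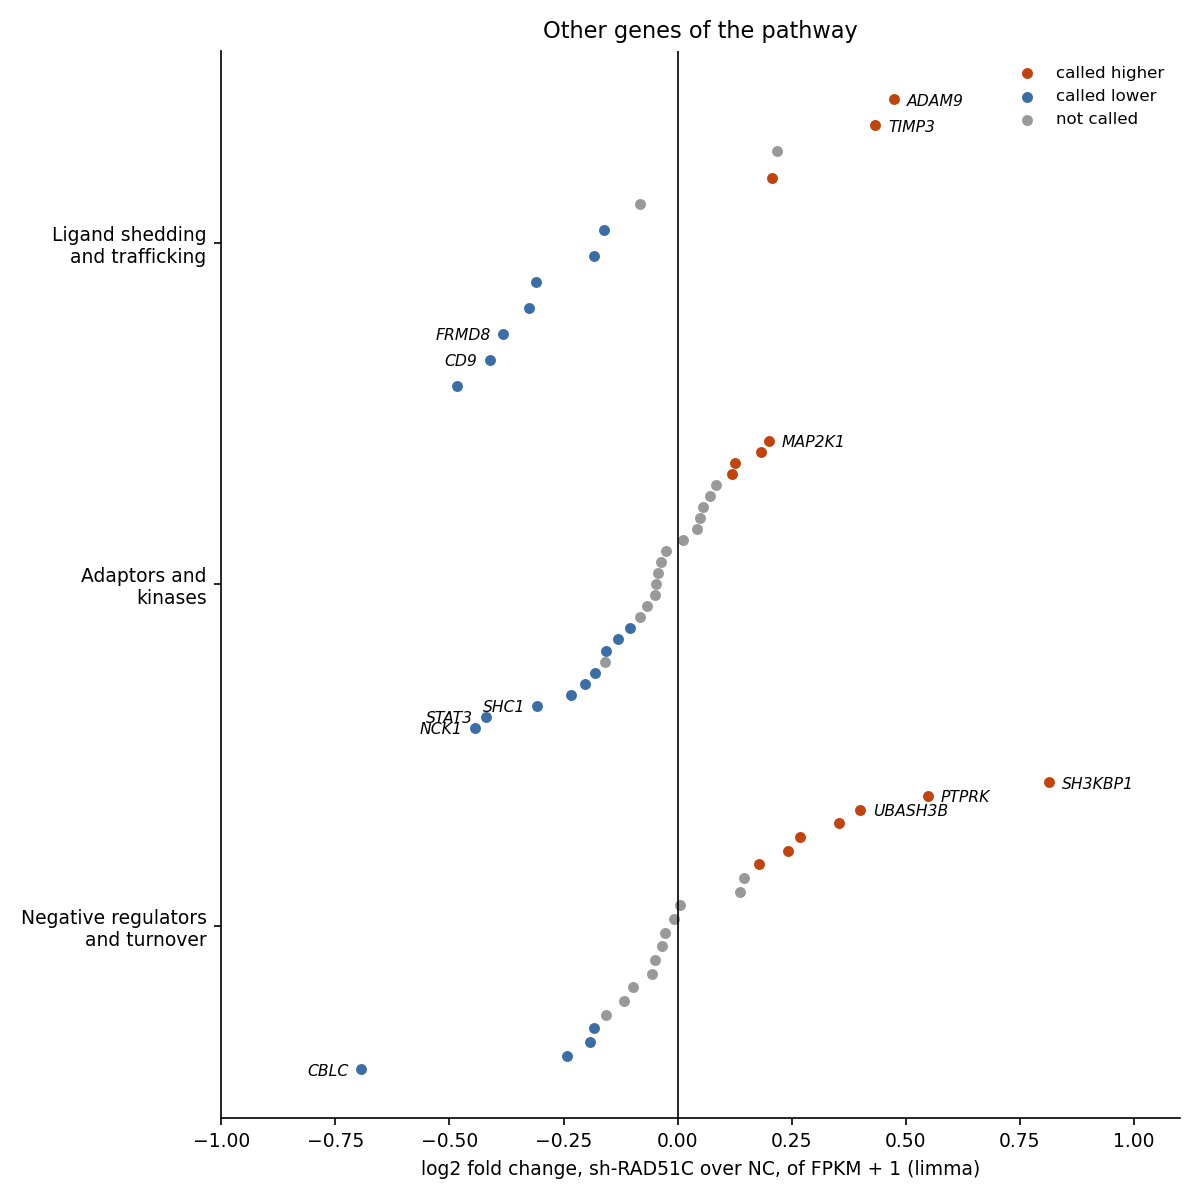
Log2 fold change of FPKM + 1 (horizontal axis, sh-RAD51C over NC) of each tested gene in the 3 pathway lists, coloured by call, with the 4 genes of smallest p in each list named. Shedding genes lie mostly left of 0, and the other lists spread around 0 with SH3KBP1 at 0.81 and CBLC at -0.69.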

How the data were processed

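Total RNA was sequenced after TRIzol extraction and a VAHTS Universal V6 library kit, per the labels' protocols. The deposited values are FPKM, computed by the authors. The submitters' processing notes name hg38, R 3.2.0 and DESeq2 but no roles. The sources used here give no aligner, counter, strand setting or annotation. Columns were matched to libraries by title.

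Values were compared as log2(FPKM + 1) in limma 3.58.1 (R 4.3.3; variance trend, no covariates) for the 11152 genes that averaged 1 FPKM or more, with p-values adjusted after Benjamini and Hochberg. This scale understates the change of low genes. The fit was also run on simulated counts with few changed genes and a single dispersion for all genes. In the libraries here many genes were called and the scatter was uneven. That run therefore does not show how far the calls here hold. FPKM steps gave whole reads (within 0.0001) for 100% of these genes, used for depth and voom. Chi-square per degree of freedom between libraries was 5.56 to 14.3 within sh-RAD51C and 3.69 to 6.39 within NC, above sampling noise. The high values, 12.6 and 14.3, were those of sh-RAD51C 1 against sh-RAD51C 2 and 3, which differed from each other by 5.56.

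Members, lists and tests were chosen with earlier results of these data known. The text names RAD51C, the members, up to 4 genes of smallest p per pathway list, the 3 profiles nearest to EGFR and to AREG (the called member of largest change), and tested chromosome 4 neighbours; any gene beyond these is marked as named after its values were seen, apart from markers. Positions follow GENCODE release 29 (GRCh38) and promoters RefSeq (GRCh38.p14). The 18 alternatives changed the pseudocount, filter, scaling, variance model, block, test or threshold, or omitted a library. Tables used scipy 1.17.1, pandas 2.3.3 and numpy 2.4.6 under Python 3.11.15.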

Additional observations from a re-analysis of the deposited data

How the results depend on the processing

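RAD51C, AREG, EREG, HBEGF, TGFA, ERBB2 and ERBB3 kept their direction and call in all 18 alternatives. EGFR kept its direction in all 18 and its call in 14, being lost also at an adjusted p under 0.01, so that 4 or 5 family genes were higher and 2 lower throughout. EPGN and ERRFI1 were called in none of the alternatives, and their small values changed sign. EPGN was at 0.0096 with equal totals, 0.0036 with median-of-ratios scaling and 0.018 with quantile normalization, and ran from -0.091 to 0.072 when each library was left out; ERRFI1 ran from -0.046 to 0.0019. No scaling moved the median of all genes by more than 0.021 (log2). Genes called lower were 1859 at a mean of at least 5 FPKM, where 7376 genes were tested and NRG1 was filtered out, leaving 0 further family genes called higher. Adaptors and kinases called higher were 2 at an adjusted p under 0.01, without the filter on low values, without the variance trend and with quantile normalization, and 2 to 4 with a library left out. Negative regulators called lower were 1 at an adjusted p under 0.01 and without the filter, 2 with equal totals, with quantile normalization and under the 5 FPKM filter, and 1 to 5 with a library left out. The cause was not tested. With the replicate block, 2601 genes were higher and 2968 lower, and of the family 5 were higher and 2 lower. Deviations of same-numbered libraries correlated at 0.19, 0.026 and 0.091, and sh-RAD51C 2 correlated best with NC 3, so the numbers were not taken to pair the libraries. Among the 10 genes, BTC had the lowest inferred depth, at 139 to 180 inferred reads per library.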
